A study of Mus musculus with 3 samples.

Results

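Complex I, the NADH:ubiquinone oxidoreductase of the inner mitochondrial membrane, was followed through its nuclear genes in granulosa cells of the mouse ovary before and after an ovulatory hormone stimulus. The members were all genes whose mouse symbol is Nduf followed by a, b, c, s, v or af and a number, or Ndufab1, which gave 47 of the 24225 genes measured. They comprise 7 core subunits, 29 supernumerary subunits and 8 assembly factors of the Ndufaf series, together 44 complex I genes, and 3 entries that carry the name without being part of the complex. Those 3 are Ndufa4, whose protein is now placed in complex IV, its paralogue Ndufa4l2, and the pseudogene Ndufs5-ps. Ndufb1 and the 7 subunits encoded in mitochondrial DNA had no matched transcript. All 47 members had 1 FPKM or more in every library, where FPKM counts fragments per kilobase of a transcript after scaling to the library's total, and none was listed at 0.

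Granulosa cells nurse the oocyte inside the follicle and, after ovulation, become steroid-producing luteal cells. They were taken from wild-type C57BL/6 females aged 21 to 28 days after birth. All animals had received 4 IU of equine chorionic gonadotropin (eCG), which drives follicle growth, and the later times followed 5 IU of human chorionic gonadotropin (hCG), the ovulation trigger. The 3 groups are cells collected before hCG (0 h), cells collected 4 h after hCG and cells collected 12 h after hCG. RNA came from 3 mice at each time, and each time has 1 library. There are therefore no biological replicates, no test was run, and every difference below is a difference between 2 libraries. The deposited intervals printed beside levels lie 2 deposited standard deviations either side of the value and cover the estimate within a library only, not the spread between animals. Steps between low values gave depths of 13400000, 11900000 and 11600000 fragments at 0, 4 and 12 h. On a transcript of 1 kb, 1 fragment was then worth 0.0957, 0.105 and 0.108 FPKM. The 9 granulosa markers were all at 1 FPKM or more in each library, with summed levels of 12226, 9433 and 6682 FPKM at 0, 4 and 12 h.

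Complex I takes electrons from NADH, passes them along flavin and iron-sulfur clusters to ubiquinone and pumps protons across the inner membrane. Its peripheral arm reaches into the matrix and holds all redox centres, and its membrane arm holds the proton pumps. The core subunits have bacterial counterparts and carry the chemistry. The supernumerary subunits surround them and are needed for assembly or stability, and the assembly factors help to build the complex but are not part of the finished enzyme.

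As a group the complex I genes were lower at 4 h than at either other time. Their summed level was 5738, 4313 and 5123 FPKM at 0, 4 and 12 h, which is 1.43%, 0.920% and 1.33% of the FPKM of all protein-coding genes. Of the 44 genes, 37 (84.1%) had their lowest value at 4 h, against 41.6% of the 13500 genes with at least 1 FPKM in any library. Among the 36 subunits the order of levels was nearly kept, with Spearman's rho of 0.94 between 0 and 4 h, 0.95 between 4 and 12 h and 0.96 between 0 and 12 h, as a description over genes that share libraries. In bulk RNA, fewer cells of a type and less RNA per cell cannot be told apart.

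**Figure D1:**
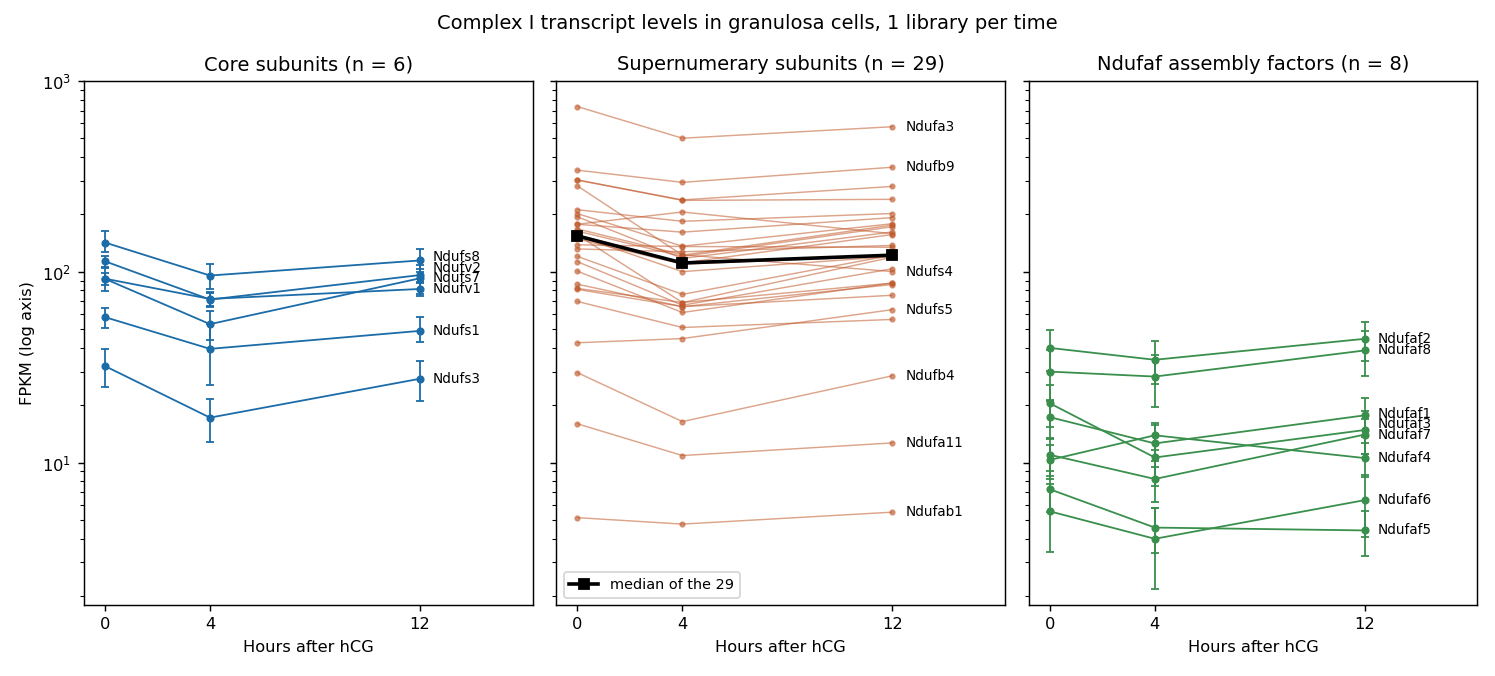
Levels of 43 complex I genes in FPKM on a log axis against hours after hCG, with core subunits on the left, supernumerary subunits in the middle and Ndufaf assembly factors on the right. Each line is a gene, each point is 1 library, the bars on the left and right are the deposited intervals, and the black squares are the median of the 29 supernumerary subunits (154, 111 and 122 FPKM). Most lines dip at 4 h, while Ndufaf4 on the right peaks there.

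A few promoters are shown because they carry the letters that factors known to control respiratory chain genes bind in other settings. Windows of 250 bases before to 50 bases after the start were at hand for 40 of the 47 members (RefSeq, GRCm38.p6). The stretches printed run from 130 bases before the start to 20 bases after it, and capitals mark the motif. Ndufb4, a membrane arm subunit, has the nuclear respiratory factor motif, GCGC followed after any 2 bases by GCGC, in 2 places and the oestrogen-related receptor motif TNAAGGTCA between them, in chr16:37654349-37654498 on the minus strand. Ndufv2, a core subunit, has the nuclear respiratory factor motif as 2 overlapping matches in 1 run, in chr17:66101540-66101689 on the minus strand. Ndufs3, also a core subunit, has the GABPA motif CCGGAAG once on each strand, in chr2:90904702-90904851 on the minus strand. Ndufa7, a peripheral arm subunit, has the YY1 motif AANATGGCG, in chr17:33824515-33824664 on the plus strand.
Ndufb4: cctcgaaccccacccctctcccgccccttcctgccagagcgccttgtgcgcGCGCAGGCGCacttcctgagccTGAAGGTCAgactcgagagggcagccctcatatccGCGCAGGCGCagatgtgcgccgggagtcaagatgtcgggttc
Ndufv2: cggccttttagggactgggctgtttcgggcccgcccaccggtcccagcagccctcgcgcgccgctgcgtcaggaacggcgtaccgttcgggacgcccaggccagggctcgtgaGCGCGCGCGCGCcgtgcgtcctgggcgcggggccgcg
Ndufs3: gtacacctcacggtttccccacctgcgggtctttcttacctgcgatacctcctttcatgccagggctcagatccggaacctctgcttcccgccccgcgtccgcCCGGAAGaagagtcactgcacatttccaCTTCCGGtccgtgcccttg
Ndufa7: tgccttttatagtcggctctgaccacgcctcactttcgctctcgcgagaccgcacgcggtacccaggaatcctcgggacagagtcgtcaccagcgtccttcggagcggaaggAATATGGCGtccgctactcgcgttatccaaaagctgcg

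Searched on both strands of the whole windows, the nuclear respiratory factor motif was in 11 of 40 members (27.5%), against 14.6% of 10626 expressed genes and 6.997% of all 27025 genes with a window. The YY1 motif was in 8 members (20%), against 5.73% of expressed genes and 2.76% of all genes. The GABPA motif was in 6 members (15%), against 19.4% of expressed genes and 9.93% of all genes, and the oestrogen-related receptor motif was in Ndufb4 alone (2.5%), against 0.875% and 1.43%. These are matches of letters and not sites of binding. The median log2 fold at 4 h over 0 h was -0.44 over the 23 members with any of the 4 motifs and -0.45 over the 17 with none.

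The comparison of 4 h with 0 h asks what the first hours after the ovulatory stimulus did to these transcripts. Folds are given as log2 of (later FPKM + 1) / (earlier FPKM + 1), a scale that understates the change of low genes. A gene is called higher or lower where the fold on this scale is 2 or more and one library of the pair has 1 FPKM or more. This is a rule of size. By it 3 of the 47 members were called lower at 4 h, Ndufa4l2, Ndufc1 and Ndufv3, where 7.03% of the 13240 genes were called lower. None was higher, where 10.2% of all genes were called higher. The share of members called lower was close to the background. With a common FPKM sum 10 members were called lower, where 13.1% of all genes were, and with a common protein-coding sum 6 were, where 11.1% of all genes were. Of the 47 members, 42 had a log2 fold below 0, against 50.5% of all genes, and the median was -0.44, against -0.01 over all genes. At a fold of 1.5, 13 members were lower, where the background was 18.7%, and none was higher, where it was 19.1%. The deposited intervals lay apart for 24 members that were lower at 4 h, where the background was 17.6%, and for 2 that were higher, where it was 22.2%. For the other 21 members the intervals overlapped. Abundant genes had intervals apart more often. Of 1750 protein-coding genes with a mean of at least 50 FPKM, 379 were lower and 676 higher in this way.

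Of the core subunits, Ndufv1 binds NADH and the flavin at the entry of the electron path. It had 92.1, 72.1 and 81.3 FPKM at 0, 4 and 12 h, a log2 fold of -0.35 at 4 h over 0 h. Ndufv2, its partner with an iron-sulfur cluster, had 113.6, 71.6 and 96.2 FPKM (-0.66). Ndufs1, the large subunit that holds further clusters next in line, had 57.9, 39.5 and 49.1 FPKM (-0.54). For Ndufv1 and Ndufv2 the 4 h interval lay below the 0 h interval. For Ndufs1 the intervals overlapped, at 25.6 to 53.4 FPKM at 4 h and 50.9 to 64.9 FPKM at 0 h.

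Ndufs8, Ndufs7 and Ndufs3 belong to the part that hands electrons to ubiquinone. Ndufs8, which carries a pair of clusters, had 142, 95.7 and 114.8 FPKM at 0, 4 and 12 h (-0.57 at 4 h over 0 h). Ndufs7, on chr10:80249105-80256794, holds the last cluster before ubiquinone and had 91.9, 53.2 and 92.5 FPKM. Its interval was 43.8 to 62.6 FPKM at 4 h, below 78.9 to 104.9 FPKM at 0 h, and its log2 fold was -0.78. Ndufs3, on chr2:90894627-90904721, which helps to hold this part together, had 32.1, 17.2 and 27.5 FPKM and the lowest fold of the core subunits, -0.86. An annotated pseudogene shares 98.6% of the matched letters of Ndufs3, so its level depends on how reads were shared out. Ndufs7 and Ndufs3 were the core subunits with the largest differences, and neither reached a fold of 2.

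The supernumerary subunits had a median level of 154, 111 and 122 FPKM at 0, 4 and 12 h, and their range spanned a ratio of 143, 105 and 105 from the highest to the lowest. Ndufa3, a small membrane arm subunit, was the highest with 735, 501.5 and 576 FPKM. Its log2 fold of -0.55 at 4 h over 0 h had intervals that lay apart. Ndufb9, which belongs to the LYR family of small mitochondrial proteins, was the next at 0 h with 341, 294.5 and 353 FPKM (-0.21). Ndufab1, the mitochondrial acyl carrier protein, was the lowest with 5.15, 4.77 and 5.50 FPKM and overlapping intervals at all times.

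The largest differences among the supernumerary subunits were in Ndufc1 and Ndufv3. Ndufc1, on chr3:51405479-51408955, is a small membrane arm subunit and had 282, 122 and 176 FPKM at 0, 4 and 12 h. The 4 h interval of 95.5 to 149 FPKM lay well below the 0 h interval of 239.9 to 324 FPKM, and the log2 fold was -1.20. Its longest transcript, of 315 nucleotides, is the shortest among the members with a length. The estimate of depth took 220 nucleotides off each length at 0 h and 200 at 4 h, which weighs most on short transcripts. The part of this in the fold of Ndufc1 was not tested. Ndufv3, on chr17:31520115-31531326, is a small subunit beside Ndufv1 and Ndufv2 and had 156, 69.1 and 119.4 FPKM. Its interval at 4 h was 51.7 to 86.4 FPKM, below 127.5 to 185 FPKM at 0 h, and the log2 fold was -1.16. The short transcript of Ndufv3 held 89.5%, 89.4% and 90.05% of its FPKM at the 3 times.

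The next in size at 4 h over 0 h were Ndufb4 (-0.81), Ndufa12 (-0.75), Ndufb7 (-0.72) and Ndufa10 (-0.71). Ndufb4 had 29.6, 16.4 and 28.5 FPKM at 0, 4 and 12 h, with intervals that overlapped, and Ndufa12, a peripheral arm subunit that takes the place of the assembly factor Ndufaf2 late in assembly, had 113.0, 66.9 and 103.8 FPKM. Ndufb7, of the intermembrane face, had 194, 117.5 and 162 FPKM, and Ndufa10, of the membrane arm, had 100.7, 61.3 and 87.4 FPKM. Ndufa12 and Ndufb7 each have an annotated pseudogene that matches them closely, and their levels are uncertain for that reason. Ndufb3 (-0.65), Ndufa8 (-0.62) and Ndufc2 (-0.56) followed, each with intervals apart at 4 h against 0 h. These are membrane arm subunits.

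At the other end were subunits with little or no difference at 4 h. Ndufa1, a membrane arm subunit encoded on the X chromosome, had 178, 206 and 158 FPKM at 0, 4 and 12 h, and its log2 fold of 0.21 at 4 h over 0 h was the highest of the 29, with overlapping intervals. It was -0.10 with a common FPKM sum. Ndufs5, of the intermembrane face, had 42.5, 44.7 and 63.4 FPKM (0.07), and -0.23 with a common FPKM sum. Ndufb2 (-0.03), Ndufb6 (-0.05) and Ndufab1 (-0.09) completed the 5 highest. The intervals of Ndufs5, Ndufb2, Ndufb6 and Ndufab1 overlapped at 4 h and 0 h. The pseudogene Ndufs5-ps had 34.7, 32.2 and 58.6 FPKM, and Ndufs5 shares 99.4% of matched letters with a pseudogene, so these levels are uncertain.

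The other supernumerary subunits lay between these ends, from -0.51 to -0.14 at 4 h over 0 h, and all were below 0 with transcripts summed per gene. Ndufb10 had 156, 111 and 157 FPKM at 0, 4 and 12 h, Ndufa5 had 164, 120.4 and 172 FPKM, and Ndufb5 had 149, 109.8 and 121 FPKM. Ndufa9, a peripheral arm subunit with a nucleotide-binding fold, had 86.1, 65.7 and 85.8 FPKM. Ndufa13, also known as GRIM-19 and required for assembly, had 69.9, 51.1 and 56.3 FPKM, and Ndufa11 had 16.0, 10.9 and 12.7 FPKM. Ndufa6 had 302, 238 and 280.3 FPKM, Ndufa7 303, 237 and 239.9 FPKM, and Ndufb8 212, 184 and 202 FPKM. Ndufs6, which helps to attach the NADH-side part, had 81.9, 69.1 and 87.3 FPKM, Ndufb11 had 80.9, 65.7 and 75.4 FPKM, and Ndufa2 had 178, 161 and 192 FPKM. Of these 12 subunits, the 4 h and 0 h intervals lay apart for Ndufb10, Ndufb5, Ndufa9, Ndufa13, Ndufa6 and Ndufa7 and overlapped for Ndufa5, Ndufa11, Ndufb8, Ndufs6, Ndufb11 and Ndufa2. The values of Ndufa7 and Ndufs6 are sums over transcripts that differed. The main transcript of Ndufa7 had 220, 192 and 183 FPKM at 0, 4 and 12 h, with overlapping intervals at 4 h and 0 h. Another of its transcripts had 62.9, 15.4 and 38.6 FPKM. The main transcript of Ndufs6 had 65.4, 66.2 and 68.3 FPKM, and its other transcript had 16.4, 2.84 and 19.0 FPKM.

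By arm, 15 of 16 peripheral arm subunits and 17 of 19 membrane arm subunits were below 0 at 4 h over 0 h, with medians of -0.44 and -0.49. Ndufab1 is in both arms and was left out of this split. The core subunits had a median of -0.57, the supernumerary subunits -0.44 and the Ndufaf factors -0.39. The middle ranges of these groups overlapped, from -0.72 to -0.44, from -0.62 to -0.21 and from -0.46 to -0.17.

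**Figure D2:**
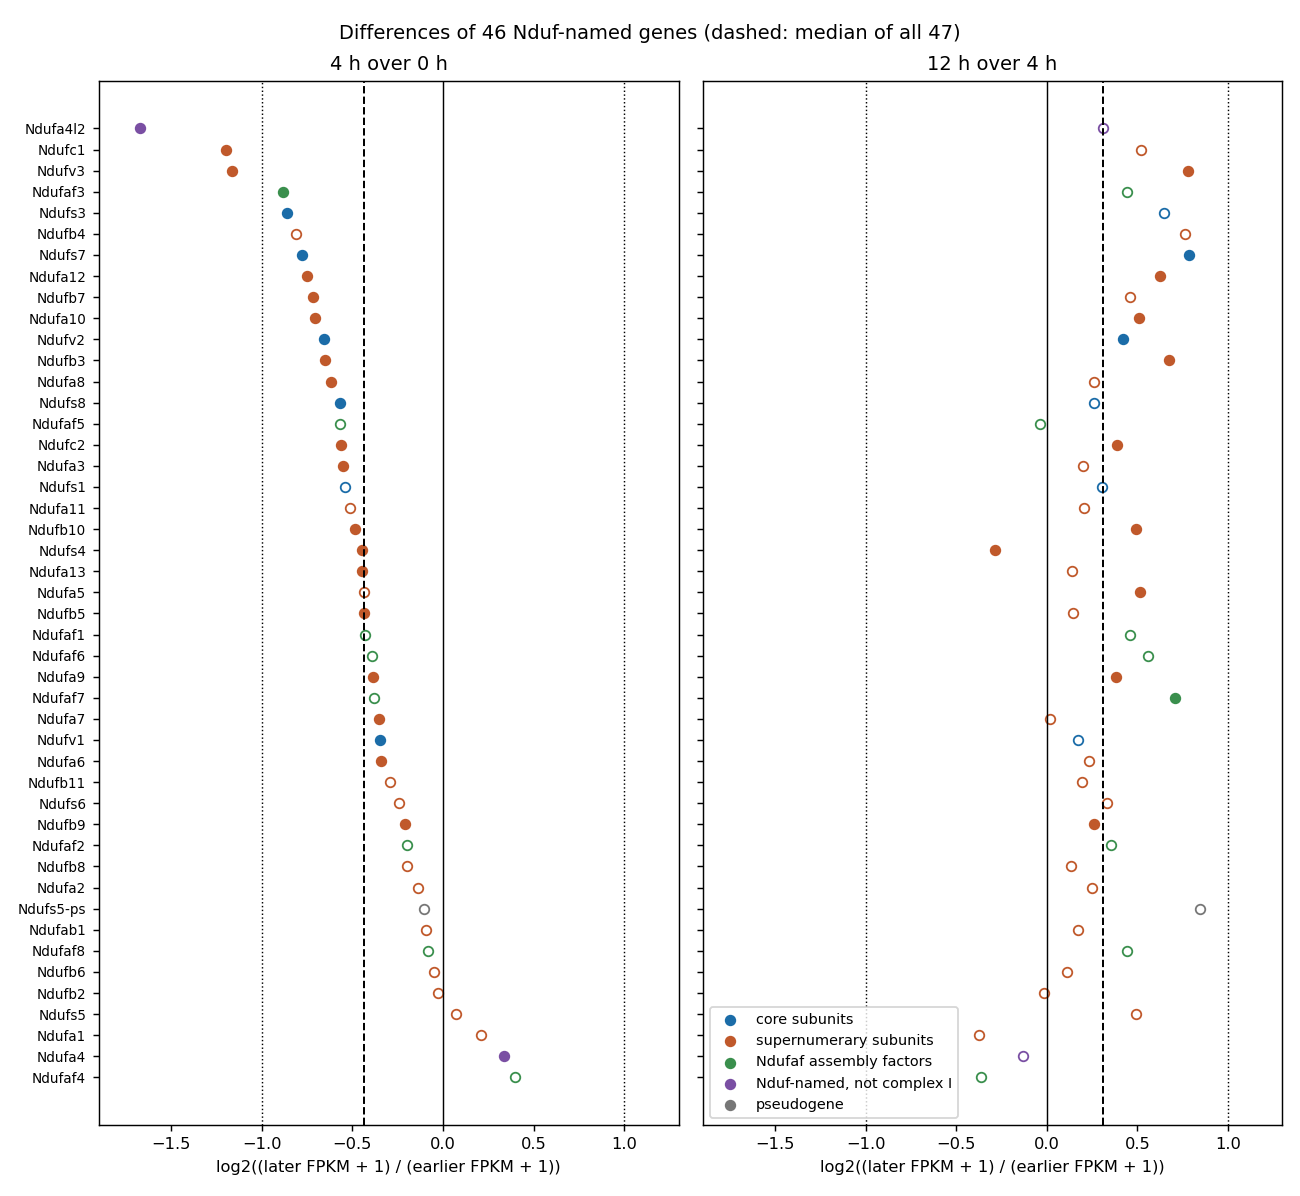
Log2 fold of 46 of the 47 Nduf-named genes at 4 h over 0 h on the left and at 12 h over 4 h on the right, in the order of the left panel. Filled points are genes whose deposited intervals lay apart, open points are genes whose intervals overlapped, dotted lines mark a fold of 2, and the dashed lines are the medians of -0.44 and 0.31 over all 47. On the left 42 points lie below 0, and on the right 40 lie above 0. Both panels use the 4 h library.

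The Ndufaf assembly factors had median levels of 14.2, 11.6 and 14.4 FPKM at 0, 4 and 12 h, against 140.5, 98.0 and 119.9 FPKM for the 36 subunits. Ndufaf1 works with Acad9, Ecsit and Tmem126b in building the membrane arm, as known from human cells. It had 17.3, 12.6 and 17.7 FPKM, a log2 fold of -0.43 at 4 h over 0 h. Ndufaf3 and Ndufaf4 act together on the ubiquinone-side part of the peripheral arm in human cells. Ndufaf3 had 20.5, 10.6 and 14.8 FPKM (-0.88), and its interval at 4 h, 7.56 to 13.7 FPKM, lay below 15.5 to 25.5 FPKM at 0 h. Ndufaf4 had 10.3, 13.9 and 10.6 FPKM (0.40), with overlapping intervals. Its fold stayed above 0 under rescaling, at 0.11 with a common FPKM sum and 0.19 with a common protein-coding sum.

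Ndufaf5 and Ndufaf7 modify arginines in core subunits in human cells, Ndufaf5 in NDUFS7. Ndufaf5 had 7.25, 4.57 and 4.42 FPKM at 0, 4 and 12 h and stayed low at 12 h, with a log2 fold of -0.61 at 12 h over 0 h and overlapping intervals. Ndufaf7 had 11.0, 8.21 and 14.0 FPKM, and its fold of 0.71 at 12 h over 4 h had intervals that lay apart. Ndufaf8, the partner of Ndufaf5, had 30.0, 28.3 and 38.7 FPKM, and Ndufaf2, which assists the NADH-side part, had 39.9, 34.6 and 44.6 FPKM. Ndufaf6, an early-acting factor, had 5.56, 3.99 and 6.36 FPKM. For these last 3 genes the intervals overlapped in every comparison. Of the 8 factors, 7 were below 0 at 4 h over 0 h, but Ndufaf3 was the sole one with intervals apart, and their low levels left wide intervals.

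The assembly genes without an Nduf name were 10 with a matched transcript, and 9 of the 10 were below 0 at 4 h over 0 h, with a median of -0.69. Nubpl, which delivers iron-sulfur clusters to complex I, had 6.45, 1.51 and 5.22 FPKM at 0, 4 and 12 h (-1.57 at 4 h over 0 h). Tmem126b had 17.2, 6.87 and 16.4 FPKM (-1.21). These 2 were called lower at 4 h against 0 h and higher at 12 h against 4 h, with folds of 1.31 and 1.15 in the second comparison. Dmac2 (-0.96), Lyrm2 (-0.80), Tmem186 (-0.80), Foxred1 (-0.57), Timmdc1 (-0.46), Acad9 (-0.44) and Dmac1 (-0.36) were below 0. Ecsit had 13.2, 13.4 and 12.4 FPKM and was level (0.03). With a common FPKM sum all 10 were below 0 at 4 h.

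The 3 Nduf-named entries outside the complex differed among themselves. Ndufa4 had 360.5, 455 and 416 FPKM at 0, 4 and 12 h, and its log2 fold of 0.33 at 4 h over 0 h had intervals apart. It was 0.03 with a common FPKM sum. Ndufa4l2, on chr10:127509274-127517154, a paralogue induced by low oxygen in other cells, had 7.09 FPKM at 0 h (4.08 to 10.1), 1.54 at 4 h (0.249 to 2.83) and 2.14 at 12 h (0.566 to 3.72). It had the lowest fold of all members, -1.67 at 4 h and -1.36 at 12 h, both over 0 h. Its level was the lowest of all members at 4 h and 12 h, but not at 0 h. With a pseudocount of 5 FPKM these folds were -0.89 and -0.76, short of the threshold.

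The comparison of 12 h with 4 h asks what followed as ovulation came near. Of the 47 members, 40 had a log2 fold above 0, against 50.7% of all 13242 genes, and the median was 0.31, against 0.01 over all genes. No member was called higher or lower, where 4.83% of all genes were called higher and 7.88% lower. With a common FPKM sum 8 were called higher, where 12.6% of all genes were, and with a common protein-coding sum 4 were, where 9.64% of all genes were. At a fold of 1.5, 8 were higher, where the background was 16.2%, and none was lower, where it was 16%. The intervals lay apart for 12 members that were higher at 12 h, where the background was 14.3%, and for 1 that was lower, where it was 20.7%. Of 1750 protein-coding genes with a mean of at least 50 FPKM, 311 were higher and 695 lower with intervals apart. This comparison and that of 4 h with 0 h share the 4 h library.

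The largest folds at 12 h over 4 h were those of Ndufs5-ps (0.85), Ndufs7 (0.79), Ndufv3 (0.78), Ndufb4 (0.76), Ndufaf7 (0.71), Ndufb3 (0.68), Ndufs3 (0.65) and Ndufa12 (0.63), which are the 8 past 1.5-fold. Ndufs7 had 76.7 to 108 FPKM at 12 h, above 43.8 to 62.6 FPKM at 4 h. Ndufb3 had 122 FPKM at 12 h, against 76.2 FPKM at 4 h. The core subunits had a median of 0.31, the supernumerary subunits 0.26 and the Ndufaf factors 0.44, and 6 of 7, 26 of 29 and 6 of 8 were above 0. Among those below 0 were Ndufs4 (-0.29), Ndufa1 (-0.38), Ndufb2 (-0.01), Ndufaf4 (-0.37), Ndufaf5 (-0.04) and Ndufa4 (-0.13).

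Ndufs4 was highest at 0 h and lowest at 12 h, an order it shared with Ndufb2 and Ndufaf5, whose intervals overlapped in every comparison. Ndufs4 is a peripheral arm subunit near the NADH-binding part, and its loss in mice causes a fatal disease of the brain. On chr13:114287795-114388094, it had 168 FPKM at 0 h (159 to 177), 123 at 4 h (115 to 131) and 100.4 at 12 h (93.2 to 108). The intervals lay apart in all 3 comparisons, and it was the only member that was lower at 12 h than at 4 h with intervals apart. Its log2 fold was -0.45 at 4 h over 0 h, -0.29 at 12 h over 4 h and -0.74 at 12 h over 0 h. Between 12 h and 4 h the direction depends on scaling, at 0.10 with a common FPKM sum and -0.01 with a common protein-coding sum.

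The comparison of 12 h with 0 h asks what remained. The median log2 fold of the 47 members was -0.10, against -0.02 over all 13026 genes, and 28 members were below 0, against 51.9% of all genes. At a fold of 1.5, 4 were lower (background 6.7%) and 1 was higher (background 8.79%), and 19 members were above 0 (background 48.1%). At a fold of 2 Ndufa4l2 alone was called lower, where 2.55% of all genes were, and none was called higher, where 3.16% were. The intervals lay apart for 7 members that were lower at 12 h, where the background was 8.68%, and for 1 that was higher, where it was 8.37%. Of 1748 protein-coding genes with a mean of at least 50 FPKM, 342 were lower and 307 higher with intervals apart. The core subunits had a median of -0.21, the supernumerary subunits -0.11 and the Ndufaf factors 0.09, and 6 of the 8 Ndufaf factors were above 0. All 8 Ndufaf factors had overlapping intervals. The lowest supernumerary subunits were Ndufs4 (-0.74) and Ndufc1 (-0.68), followed by Ndufv3 (-0.38). Ndufa3 (-0.35), Ndufa8 (-0.35) and Ndufa7 (-0.34) came next. Of these genes, Ndufs4, Ndufc1, Ndufa3 and Ndufa8 had intervals apart, while those of Ndufv3 and Ndufa7 overlapped. The highest supernumerary subunits were Ndufs5 (0.57), Ndufa2 (0.12) and Ndufs6 (0.09), with overlapping intervals. Ndufs7, Ndufb10 and Ndufa9 differed by 0.01 or less in size.

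The courses of the roles can be read side by side. Of the 7 core subunits, 5 were highest at 0 h and lowest at 4 h, and Ndufs7 was lowest at 4 h and highest at 12 h. Of the 29 supernumerary subunits, 17 were lowest at 4 h and highest at 0 h and 8 were lowest at 4 h and highest at 12 h. Of the 8 Ndufaf factors, 5 were lowest at 4 h and highest at 12 h. Over all 13500 genes with at least 1 FPKM in any library, 41.6% were lowest at 4 h. For genes lowest at 4 h, the place of the highest value rests on 12 h against 0 h. There the intervals overlapped for 5 of 7 core subunits, 24 of 29 supernumerary subunits and all 8 Ndufaf factors.

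Other mitochondrial lists place these values. The nuclear subunits of complexes II to V had a median log2 fold of -0.23 at 4 h over 0 h, with 27 of 36 below 0, 9 above 0 and none past 2-fold. Within this list the genes of complex II, Sdha, Sdhb, Sdhc and Sdhd, had folds of -0.72, -0.61, -0.38 and -0.31. Their 4 h intervals lay below their 0 h intervals, and their folds were in the range of the complex I genes. Cox5a, of complex IV, had 213, 299 and 225 FPKM at 0, 4 and 12 h (0.49 at 4 h over 0 h), while Atp5h, of complex V, had 77.4, 42.3 and 77.1 FPKM (-0.86). The mitochondrial ribosomal proteins had a median of -0.25, with 52 of 77 below 0 and 4 called lower. Among them Mrps21 had 312, 118 and 196 FPKM and Mrpl14 had 92.4, 36.8 and 97.1 FPKM. In the other direction 25 were above 0, and Mrpl50 had 26.2, 44.2 and 28.9 FPKM (0.73), with intervals apart. Genes of iron-sulfur cluster assembly, which supply the clusters that complex I carries in numbers, had a median of -0.46 with 7 of 13 below 0. Hscb, a cochaperone of cluster transfer, had 16.7, 6.00 and 16.9 FPKM (-1.34). The other 6 were above 0, the highest being Isca2 with 39.8, 46.9 and 50.5 FPKM (0.23) and overlapping intervals at 4 h and 0 h. Markers of import and the matrix had a median of -0.04. Lowest at 4 h were 25 of 36 genes of complexes II to V (69.4%) and 49 of 77 mitochondrial ribosomal proteins (63.6%), against 37 of 44 for complex I. With a common FPKM sum the medians at 4 h over 0 h were -0.53 for complexes II to V and -0.55 for the mitochondrial ribosome, against -0.74 for the 47 members, and that of all genes was -0.29.

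**Figure D3:**
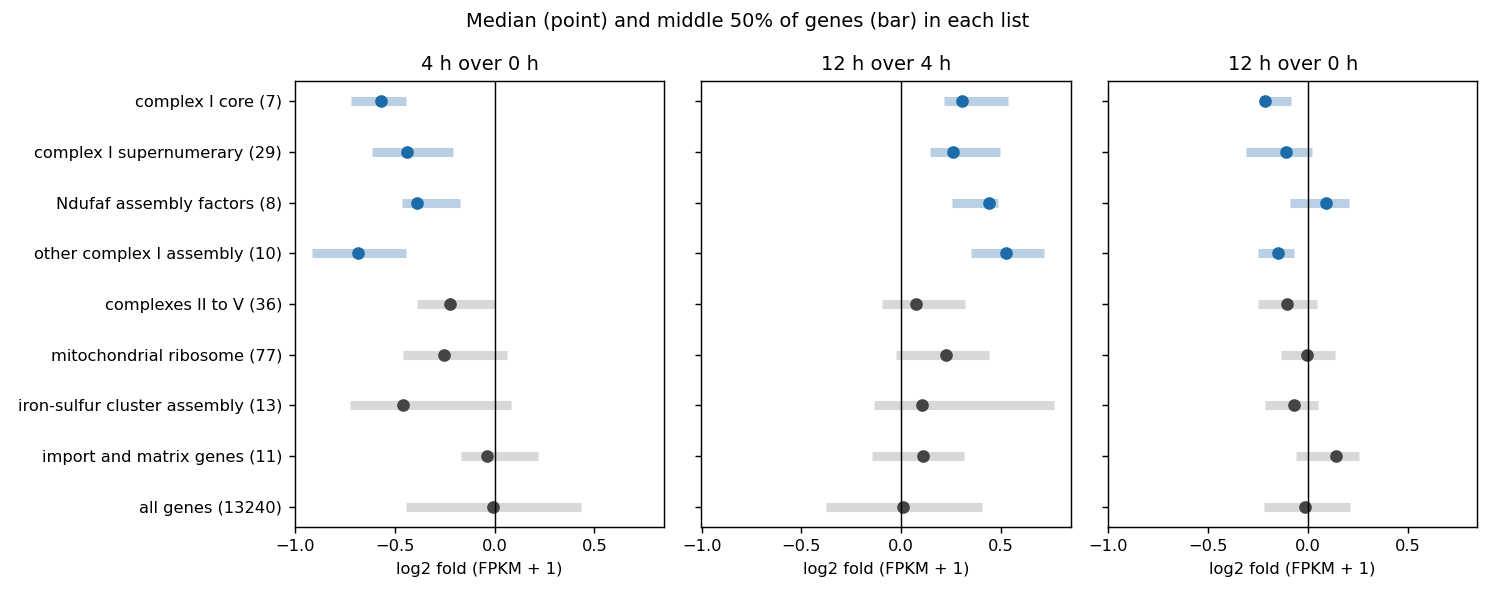
Median log2 fold (point) and middle range of genes (bar, between the lower and upper quartiles) for each list, at 4 h over 0 h, 12 h over 4 h and 12 h over 0 h, with the number of genes at 4 h over 0 h in brackets. Blue marks the complex I lists and grey the others. At 4 h over 0 h the complex I lists lie between -0.69 and -0.39, below complexes II to V at -0.23 and all genes at -0.01. The grey list of iron-sulfur cluster assembly lies within the same range, at -0.46. The genes of complex II, which are not shown apart, ranged from -0.72 to -0.31.

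Of the factors whose motifs were searched and related regulators, 6 had at least 1 FPKM, and all 6 were above 0 at 4 h over 0 h on the deposited scale, with a median of 0.37. With a common FPKM sum 4 of the 6 were above 0 and the median was 0.08. The 4 h and 0 h intervals lay apart for 2 of the 6, Pprc1 and Yy1. Pprc1, a coactivator of nuclear respiratory factors, had 10.2, 18.8 and 14.2 FPKM at 0, 4 and 12 h (0.82 at 4 h over 0 h). Nrf1 had 14.0, 18.1 and 12.7 FPKM, Gabpa 17.5, 20.7 and 17.2 FPKM, and Yy1 41.1, 54.8 and 36.8 FPKM. The coactivators Ppargc1a and Ppargc1b were under 0.5 FPKM in all libraries.

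Complex I transcripts are short, and short transcripts as a class were lower at 4 h. The 46 members with a length include 10 under 600 nt (nucleotides) and 18 from 600 to under 1000 nt. Length here is that of the longest annotated transcript, which need not be the main one expressed. Ndufv3 is classed at 1582 nt, though a transcript of 493 nt held 89.4% of its FPKM at 4 h. Among protein-coding genes other than members, the median log2 fold at 4 h over 0 h was -0.19 under 600 nt, -0.20 from 600 to under 1000 nt, -0.10 from 1000 to under 2000 nt and 0.04 from 2000 nt. The members in the same classes had medians of -0.29, -0.46, -0.44 and -0.32, over 10, 18, 14 and 4 genes, below the other genes in each class. Other protein-coding genes under 1000 nt with a mean of at least 50 FPKM numbered 248 and had a median of -0.11, against -0.40 for the 28 members under 1000 nt. The part of transcript length in the members' values was not tested beyond these medians.

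**Figure D4:**
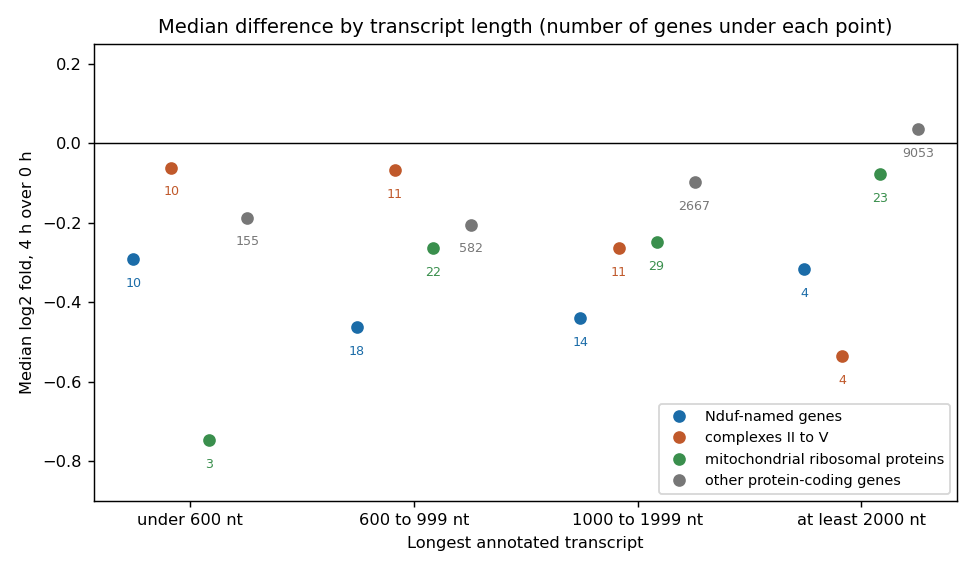
Median log2 fold at 4 h over 0 h against the length class of the longest annotated transcript, for Nduf-named genes, complexes II to V, mitochondrial ribosomal proteins and other protein-coding genes, with the number of genes under each point. The Nduf-named genes lie between -0.46 and -0.29 in all 4 classes, while the other protein-coding genes lie between -0.20 and 0.04.

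Markers of the granulosa cells themselves also differed at 4 h. Of the 9, 6 were below 0 at 4 h over 0 h, with a median of -1.12, and 5 were called lower. Fshr, the receptor of follicle-stimulating hormone, had 133, 15.5 and 32.1 FPKM at 0, 4 and 12 h, and Cyp19a1, the aromatase that makes oestrogen, had 197.5, 30.0 and 104.5 FPKM. The 3 above 0 at 4 h over 0 h were Inha, Amh and Lhcgr, each with intervals apart. Amh had 252, 351 and 406 FPKM and Lhcgr 90.1, 113 and 69.4 FPKM. At 12 h over 4 h 7 of the 9 were above 0, with a median of 0.25, and 4 were called higher. The summed level of the list does not follow this, since Inha, an inhibin subunit, held most of it with 6986, 7163 and 3742 FPKM. The part of these differences in the complex I values was not tested.

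Markers of other cells moved between the libraries as well. The 10 oocyte markers had a summed level of 199.7, 164 and 284 FPKM at 0, 4 and 12 h, with 9, 9 and 10 of the 10 at 1 FPKM or more and none listed at 0. At 4 h over 0 h all 9 tested were below 0, with a median of -0.28, and at 12 h over 4 h all 10 were above 0, with a median of 0.79, the same direction as the complex I genes. Gdf9, an oocyte growth factor, had 53.6, 48.2 and 83.8 FPKM. Summed leukocyte markers were 61.3, 118 and 109 FPKM, endothelial markers 15.9, 37.7 and 14.98 FPKM, and erythroid markers 1739, 1092 and 1111 FPKM. Theca and stroma markers were 291, 322 and 297 FPKM. Single genes did not all follow these sums. At 12 h over 0 h 5 of 7 theca and stroma markers were above 0 and 2 below. At 4 h over 0 h 6 of 7 leukocyte markers tested were above 0 and 1 below, and 3 of 4 erythroid markers tested were below 0 and 1 above. The part of other cells in the complex I values was not tested.

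The measurement of single members has further limits. Of 46 members searched, 9 match an annotated pseudogene transcript at 90% identity or more over at least 50% of their length, namely Ndufa7, Ndufa11, Ndufa12, Ndufb2, Ndufb7, Ndufb11, Ndufs3, Ndufs5 and Ndufs6. No source states strandedness, so genes that overlap on opposite strands are uncertain. No member changed the share of an isoform by 25 percentage points at 10 FPKM or more in both libraries.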

How the data were processed

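Messenger RNA of granulosa cells was sequenced as 1 library per time, at 0, 4 and 12 h. The values analysed are FPKM of RefSeq isoforms, made and deposited by the authors with a lower and an upper bound. Per the submitters' processing notes, CASAVA 1.8, TopHat2 2.1.1, Cufflinks 2.2.1 and mm10 were used, with no role or order given. Per the labels' protocols, RNA was column-purified and an Illumina mRNA kit was used. The sources used here do not say whether the RNA of the mice was pooled.

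Of 34535 isoforms, 34169 were matched to genes through RefSeq accessions of GRCm38.p6, 193 through GENCODE, and 173 had no match. Summing over isoforms gave 24225 genes, with bounds combined as the root of summed squared half-widths. No estimate of a member was marked as failed. Coordinates are 1-based positions in GRCm38. Depth came from genes whose low values lie on steps of 1 fragment, where 70.9%, 70.0% and 71.7% of values lay within 0.1 of a whole number and chance gives 20%. It limits precision in low genes, and intervals cover the estimate within a library only.

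Folds used a pseudocount of 1 FPKM and a filter of at least 1 FPKM in 1 of the 2 libraries. Pseudogene copies were searched with BLAST 2.17.0. Python 3.11.15, pandas 2.3.3, numpy 2.4.6, scipy 1.17.1 and matplotlib 3.10.9 were used. The computing of folds and the calling rule were tested on simulated gene values, and the other steps were not. With 1 library per time no test and no p-value was computed. The members and gene lists were chosen with earlier results of these data known. By the rule for named genes any member may be named, but 1 is not reported here and enters the group counts and medians only. The other core subunits, Ndufaf factors, other assembly genes and entries outside the complex are given in full, the supernumerary subunits with the 5 highest and lowest folds and levels come first, and the rest are given by level. Of other lists up to 2 genes in each direction are named. Fshr, Cyp19a1, Inha, Amh, Lhcgr, Gdf9, Nrf1, Gabpa, Yy1 and the Sdh genes of complex II were named after their values were seen. Alternatives were other pseudocounts, filters, scalings and thresholds, the main isoform alone, and subsets of the members chosen after seeing the data.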

Additional observations from a re-analysis of the deposited data

How the results depend on the processing

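No paired analysis was possible because each time has 1 library, and for the same reason no library could be left out. The count of members lower at 4 h against 0 h was 3 as reported, 10 with a common FPKM sum (13.1% of all genes under that scaling), 6 with a common protein-coding sum (11.1%), 13 at 1.5-fold and 24 by intervals that lay apart, and by such intervals 2 were higher, against 0. The count higher at 12 h against 4 h was 0 as reported, 8 with a common FPKM sum (12.6% of all genes), 4 with a common protein-coding sum (9.64%), 8 at 1.5-fold and 12 by intervals apart, by which 1 was lower. At 12 h against 0 h, 1 was lower as reported, 0 with a pseudocount of 5 FPKM or over the 44 complex I genes, 4 at 1.5-fold and 7 by intervals apart, and 1 was higher at 1.5-fold and by intervals apart. The median at 12 h over 4 h was 0.31, and 0.69 with a common FPKM sum. The 4 h library has the largest FPKM sum (621365, against 501561 at 0 h), and a common sum shifted the median of all genes by -0.28 at 4 h over 0 h. Relative to all genes the members' median was -0.43 as deposited, -0.45 with a common FPKM sum and -0.44 with a common protein-coding sum, with 42, 45 and 44 of 47 below 0. With 5 FPKM and 15 percentage points, 2 members (Ndufs1 and Ndufs6) changed an isoform share, against 0. No called fold and no median over the members changed sign under the alternatives run, but folds of uncalled members did. With a common FPKM sum 3 members changed sign at 4 h over 0 h (Ndufa1 and Ndufs5 among them), 6 at 12 h over 4 h (Ndufs4 among them) and 4 at 12 h over 0 h, and with a common protein-coding sum 2, 4 and 3 did. With the main isoform alone 1 changed sign at 4 h over 0 h (Ndufs6) and 1 at 12 h over 4 h (Ndufa7). With scaling by the median of gene ratios 1 did at 12 h over 4 h and 1 at 12 h over 0 h.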
